A study of Mus musculus with 8 samples.

Results

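Hnf4a, Cebpa, Cebpb, Nr1h4, Nr1i3, Nr0b2, Prox1, Foxa1 and Foxa3 encode transcription factors and nuclear receptors best known from hepatocytes. These 9 genes were taken by name from the table of 46603 genes, and their counts were compared between liver label-retaining cells (LLRCs) and non-LRC biliary cells. Both populations were sorted from the livers of mice with the genotype R26rtTA het/H2B-EGFP het, in which doxycycline switches on a green histone fusion that is diluted whenever a cell divides. Doxycycline was given from birth to postnatal day 5 and livers were taken at 8 weeks of age. LLRCs had kept the green label (EGFP+EpCAM+CD45-) and non-LRC cells had not (EGFP-EpCAM+CD45-). Each of 4 mice (JV602, JV621, JV624 and JV6314) gave 1 library of each kind, so that the 8 libraries form 4 pairs. All animals carried both transgenes and received doxycycline, and the transactivator sits in the ubiquitously active Rosa26 locus, so that labelling was not limited to one cell type. The study also notes that bone marrow cells of such mice can make the fusion without doxycycline.

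Hepatocytes and cholangiocytes, the cells that line bile ducts, both descend from hepatoblasts. The FOXA proteins open chromatin at liver genes, HNF4A (an orphan nuclear receptor) and the C/EBP proteins drive the genes of the mature hepatocyte, and PROX1 is a homeobox protein needed for hepatoblasts to spread during liver growth. The nuclear receptors FXR (encoded by Nr1h4) and CAR (Nr1i3) sense bile acids and foreign compounds. SHP (Nr0b2) has no DNA-binding domain of its own. It is induced by FXR and represses, among others, the genes of bile acid synthesis.

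The LLRC libraries held 7860021 to 9851819 counts each and the non-LRC libraries 4670132 to 8056103. Levels are given as CPM, the share of a gene in the library's total count after TMM scaling of the library sizes, given in counts per 1000000, and 3 counts corresponded to between 0.289 and 0.623 CPM. Epcam, the surface marker of the sort, averaged 579.9 ± 48.3 CPM (SD, n = 4) in LLRCs against 547.7 ± 147 CPM in non-LRC cells, and Krt19, a keratin of bile ducts, averaged 115.5 ± 27.8 and 133.0 ± 32.9 CPM. Alb, the main serum protein gene of hepatocytes, was also read in all libraries, at 2322 ± 197 and 2305 ± 601 CPM. The non-LRC libraries varied in transcripts of other cell types, each in its own way. The library of JV624 had the highest summed CPM over 12 hepatocyte markers (9085, beside 8604 in JV6314 and a LLRC range of 6750 to 8320), over 8 mesenchymal markers (2598, beside 2206 in JV6314) and over 5 mesothelial markers (2621, beside 1930 in JV621), and the lowest over the cholangiocyte markers, both with Spp1, which held most of that sum, and over the 14 others. The library of JV621 was the highest for endothelial (1049) and hematopoietic markers (588.4) and that of JV6314 for acinar markers of the pancreas (1105). The non-LRC library of JV621 had the fewest genes detected, 14234 against 16042 to 20430 in the others.

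None of the 9 genes passed the test between LLRCs and non-LRC cells, and no other gene did either. Of 13605 genes tested with edgeR's quasi-likelihood test, 0 had an adjusted p below 0.05 (0%). At an unadjusted p below 0.05 stood 702 genes (5.16%), of which 217 were higher (1.6%) and 485 lower (3.56%) in LLRCs. DESeq2 called 221 genes (1.62%), edgeR's exact test 154 (1.13%) and its likelihood ratio test 171 (1.26%), with 0 of the 8 genes of the group that could be tested among them. Of these 8 genes, Foxa1 alone had an unadjusted p below 0.05 in the quasi-likelihood test with all 8 libraries. With DESeq2, Foxa1 and Hnf4a both had one. The log2 fold changes (LLRC over non-LRC) were above 0 for Foxa1, Nr0b2 and Prox1 and below 0 for the other 5, with a median of -0.55 beside -0.01 over all genes tested. Without the non-LRC library of JV624 this median was 0.08. That library was the highest for several of these genes, so that its removal raises their fold changes by construction. With any other single library left out the median lay between -0.64 and -0.40.

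**Figure D1:**
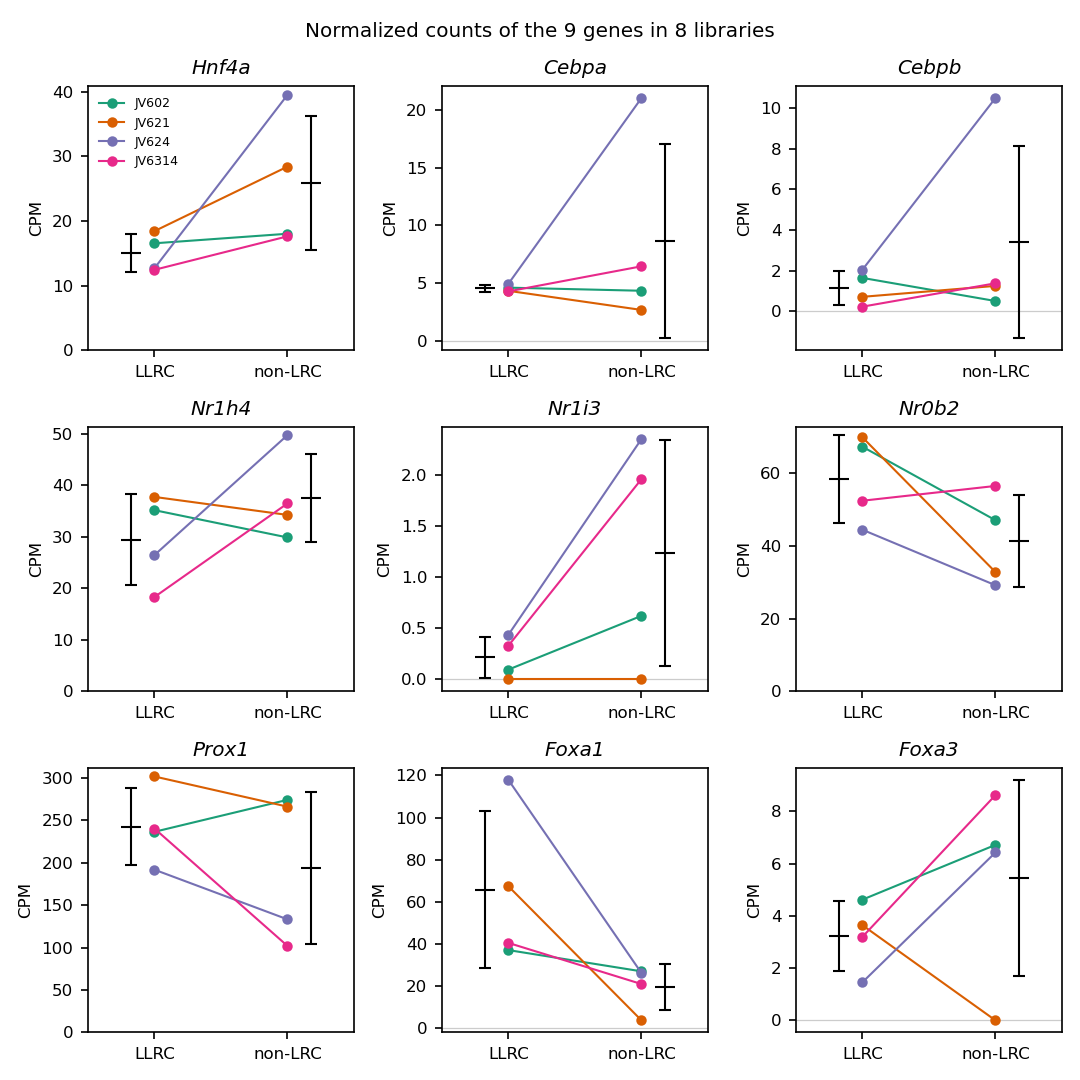
CPM of each of the 9 genes (vertical axes) in LLRC and non-LRC libraries, with a line joining the libraries of a mouse and black bars for the mean ± SD of 4 libraries. The groups were apart for Foxa1 (37.1 to 117.8 against 3.74 to 27.0 CPM) and overlapped for the other 8 genes, and the non-LRC library of JV624 was the highest of all for Hnf4a, Cebpa, Cebpb, Nr1h4 and Nr1i3.

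Foxa1 had the largest absolute fold change of the 8 genes tested with all 8 libraries and TMM scaling, while that of Cebpb was larger with library sizes alone and without the LLRC library of JV624 or the non-LRC library of JV621 or JV6314. It encodes a forkhead pioneer factor that binds liver enhancers before other factors do, and its gene lies on chromosome 12, 57540628 to 57546916 of GRCm38, on the minus strand. In the order JV602, JV621, JV624, JV6314, which is kept throughout, its LLRC libraries held 37.1, 67.4, 117.8 and 40.5 CPM and its non-LRC libraries 27.0, 3.74, 26.2 and 20.98 CPM. Every LLRC library was thus above every non-LRC library, and LLRCs were higher in 4 of 4 mice. Groups that were apart in this direction were found for 2.15% of all genes tested, and a higher level in each mouse for 7.74%. The means were 65.7 ± 37.3 CPM for LLRCs against 19.5 ± 10.8 CPM for non-LRC cells (n = 4 each), a log2 fold change of 1.75 ± 0.62 (SE). The unadjusted p was 0.0203 and the adjusted p 0.778 in edgeR's quasi-likelihood test. The exact two-sided permutation test of log2(CPM + 1) gave p = 0.029, the smallest that 4 against 4 libraries allow. Over the 4 within-mouse differences the exact test also gave the smallest p it allows, which is above 0.05.

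The mice differed in the size of this difference. In JV602 the LLRC library was 0.44 above the non-LRC library on the log2(CPM + 1) scale, and in JV6314 0.92. The differences were 2.13 in JV624, where LLRCs had the highest level of all, and 3.85 in JV621, where the non-LRC library held 18 Foxa1 counts. Without that library the non-LRC mean was 24.7 ± 3.27 CPM (n = 3), the log2 fold change 1.42, and the groups remained apart. Over 18 alternative settings the log2 fold change lay between 1.32 and 1.95 and the adjusted p between 0.210 and 1.00. Without the LLRC library of JV624 the unadjusted p was 0.0708 (edgeR's quasi-likelihood test), above 0.05.

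The bases upstream of the Foxa1 start site, in RefSeq's sequence of GRCm38.p6, are shown because Foxa1 was the gene whose groups were apart and because this stretch holds a forkhead motif. The start meant is that of the RefSeq transcript. GENCODE also has a longer transcript that starts further upstream, at the gene's end coordinate given above, and the stretch lies in an intron of it. Capitals mark GTAAACA, the reverse complement of TGTTTAC, 141 to 135 bases before the start.
Foxa1 upstream stretch, chr12:57546122-57546361, minus strand: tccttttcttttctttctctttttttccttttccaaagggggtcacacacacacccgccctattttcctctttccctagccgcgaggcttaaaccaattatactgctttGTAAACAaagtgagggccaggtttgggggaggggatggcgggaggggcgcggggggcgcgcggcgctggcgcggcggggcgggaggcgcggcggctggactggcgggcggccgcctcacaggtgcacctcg
TGTTTAC was found, on either strand, in 3.65% of the 32851 RefSeq promoter windows, and in 1 of the 11 windows of these 9 genes. Each window searched holds 300 bases around a start site, and the stretch shown is the part of the Foxa1 window upstream of the exon. A match of letters does not show binding.

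Foxa3, a related forkhead gene of endoderm and liver (chromosome 7, 19013284 to 19023538, minus strand), had a fold change of the opposite sign to Foxa1. Its LLRC libraries held 4.62, 3.64, 1.46 and 3.2 CPM and its non-LRC libraries 6.72, 0, 6.43 and 8.63 CPM, in the same order. Non-LRC cells had the higher level in 3 of 4 mice, and the library at 0, that of JV621, allows up to 0.623 CPM. The means were 3.23 ± 1.32 and 5.45 ± 3.76 CPM, with a log2 fold change of -0.75 ± 1.01 (adjusted p = 1.00, edgeR's quasi-likelihood test). It was -1.15 without the non-LRC library of JV621, -0.44 without that of JV6314, -0.50 without the LLRC library of JV624 and -0.39 with the mouse as a block. Foxa2, the remaining FOXA gene of the liver, is named after its values were seen. It averaged 67.7 ± 11.8 CPM in LLRCs against 40.8 ± 17.1 CPM in non-LRC cells. It was higher in LLRCs in 4 of 4 mice, as were 7.74% of all genes tested. Its log2 fold change was 0.73 ± 0.35 (adjusted p = 1.00, edgeR's quasi-likelihood test). As for Foxa1, its highest library was the LLRC library of JV624.

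Hnf4a (chromosome 2, 163506808 to 163572910, plus strand), a central regulator of hepatocyte identity, was lower in the LLRC library of each of the 4 mice. The 4 LLRC libraries stood at 16.6, 18.5, 12.7 and 12.5 CPM, against 18.0, 28.4, 39.5 and 17.7 CPM in the non-LRC libraries. The groups overlapped, since the LLRC library of JV621 was above the non-LRC libraries of JV602 and JV6314. A lower level in each mouse was found for 5.53% of all genes tested. The means were 15.1 ± 2.94 and 25.9 ± 10.4 CPM, and the log2 fold change of -0.78 ± 0.39 had an unadjusted p of 0.0724 and an adjusted p of 1.00 (edgeR's quasi-likelihood test). The exact permutation test gave p = 0.0857 between groups and its smallest possible p within mice. Without the non-LRC library of JV624 the log2 fold change was -0.51. Over 18 alternative settings the unadjusted p lay between 0.0315 (DESeq2) and 0.217 (edgeR's quasi-likelihood test without that library).

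Hnf4a is read from 2 promoters, an upstream one used in embryonic liver, gut and pancreas and a downstream one used in the adult liver. The counts pool the transcripts of both, so that they do not tell which was in use. Both upstream stretches are shown, with capitals for the single match to a spelling searched, ATCAAT, a ONECUT motif that 7.54% of all promoter windows hold.
Hnf4a upstream promoter, chr2:163506607-163506807, plus strand: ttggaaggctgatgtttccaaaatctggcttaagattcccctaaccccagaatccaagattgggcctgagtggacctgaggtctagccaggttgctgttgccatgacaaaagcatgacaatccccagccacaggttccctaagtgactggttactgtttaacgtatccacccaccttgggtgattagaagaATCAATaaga
Hnf4a downstream promoter, chr2:163546943-163547154, plus strand: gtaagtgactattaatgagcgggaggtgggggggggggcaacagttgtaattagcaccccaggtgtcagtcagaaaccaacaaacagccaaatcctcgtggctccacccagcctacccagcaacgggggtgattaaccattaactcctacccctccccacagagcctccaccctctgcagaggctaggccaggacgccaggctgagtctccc
A window of Prox1 held the forkhead spelling TGTTTGC 120 to 114 bases before its start, as did 5.07% of all windows. Of the 11 windows of the group, 0 held the HNF4A spelling CAAAGTC (4.44% of all windows), the C/EBP spelling TTGCNNAA (10.8%), the LRH-1 spelling CAAGGTCA (1.56%) or the ONECUT spelling ATCGAT (0.925%), and 0 held an HNF1 palindrome or an inverted or direct repeat of AGGTCA. Both strands were searched.

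Nr1h4, the bile acid receptor FXR (chromosome 10, 89454234 to 89533585, minus strand), was read at 35.2, 37.7, 26.5 and 18.3 CPM from LLRCs, and at 29.9, 34.2, 49.7 and 36.5 CPM from non-LRC cells. LLRCs had more in 2 mice and less in 2, and the groups overlapped. The log2 fold change was -0.35 ± 0.34 (adjusted p = 1.00, edgeR's quasi-likelihood test). It was -0.19 without the non-LRC library of JV624 and -0.17 without the LLRC library of JV6314.

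Nr0b2, which encodes the FXR-induced repressor SHP (chromosome 4, 133553376 to 133556536, plus strand), held 67.2, 69.8, 44.4 and 52.4 CPM in LLRCs, against 47.1, 32.8, 29.2 and 56.5 CPM in the non-LRC cells of the same mice. LLRCs were higher in 3 of 4 mice, with JV6314 the exception. The means of 58.5 ± 12.1 and 41.4 ± 12.7 CPM gave a log2 fold change of 0.50 ± 0.32 and an adjusted p of 1.00 (edgeR's quasi-likelihood test), and the exact permutation p was 0.143. Nr1h4 and Nr0b2 thus had fold changes of opposite sign, neither past the test. The non-LRC library of JV624 was the highest of all for Nr1h4 and the lowest for Nr0b2.

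Nr1i3, the xenobiotic receptor CAR (chromosome 1, 171213970 to 171220701, plus strand), had too few counts to be tested. The LLRC libraries held 1, 0, 3 and 3 counts, and the non-LRC libraries 5, 0, 15 and 10. Over the groups these are 7 and 30 counts, which scale to a CPM ratio of non-LRC over LLRC of 6.13, with an exact 95% interval of 2.64 to 16.5 that covers counting error only. The exact permutation p over libraries was 0.171. The authors counted reads without regard to strand, and 74.9% of the exon bases of Nr1i3 overlap Tomm40l on the opposite strand.

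Cebpa, which drives the metabolic genes of the resting hepatocyte (chromosome 7, 35119293 to 35121928, plus strand), was steady across LLRCs and not across non-LRC cells. The LLRC libraries held 4.62, 4.35, 4.97 and 4.30 CPM and the non-LRC libraries 4.36, 2.70, 21.02 and 6.47 CPM. The non-LRC library of JV624 alone was far above the others, at 4.83 times the median of the other 7. The means were 4.56 ± 0.307 and 8.64 ± 8.40 CPM, with a log2 fold change of -0.92 ± 0.66 (adjusted p = 1.00, edgeR's quasi-likelihood test). Without that library the non-LRC mean was 4.51 CPM and the log2 fold change 0.012. With the mouse as a block it was -0.46.

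Cebpb, a relative that is induced in the acute phase and in regeneration (chromosome 2, 167688915 to 167690418, plus strand), was also highest in the non-LRC library of JV624, at lower counts and with more spread among LLRCs. In LLRCs it stood at 1.64, 0.705, 2.05 and 0.221 CPM, but in non-LRC cells at 0.498, 1.25, 10.5 and 1.37 CPM. The 10.5 CPM came from 67 counts in the non-LRC library of JV624, while the other 7 libraries held 2 to 17 counts. The log2 fold change was -1.56 ± 1.05 (adjusted p = 1.00, edgeR's quasi-likelihood test) and turned to 0.15 without that library. Of the exon bases of Cebpb, 20.7% overlap Tmem189.

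Prox1 (chromosome 1, 190118035 to 190170714, minus strand) had the most counts of the group, between 520 and 2568 per library. It was read at 236.6, 301.9, 191.9 and 240.5 CPM from LLRCs and at 274.3, 266.3, 133.4 and 102.0 CPM from non-LRC cells. The non-LRC libraries of JV602 and JV621 lay within the LLRC range and those of JV624 and JV6314 below it. The log2 fold change was 0.32 ± 0.36 (adjusted p = 1.00, edgeR's quasi-likelihood test), and LLRCs were higher in 3 of 4 mice. The log2 fold change was 0.53 without the non-LRC library of JV602, 0.52 without that of JV621, 0.17 without that of JV624, 0.12 without that of JV6314 and 0.21 without the LLRC library of JV621. PROX1 also marks lymphatic endothelium. The summed CPM of 12 endothelial markers was 27.8 to 70.3 in LLRCs against 239.2 to 1049 in non-LRC cells. The part of endothelial cells in the Prox1 values was not tested.

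**Figure D2:**
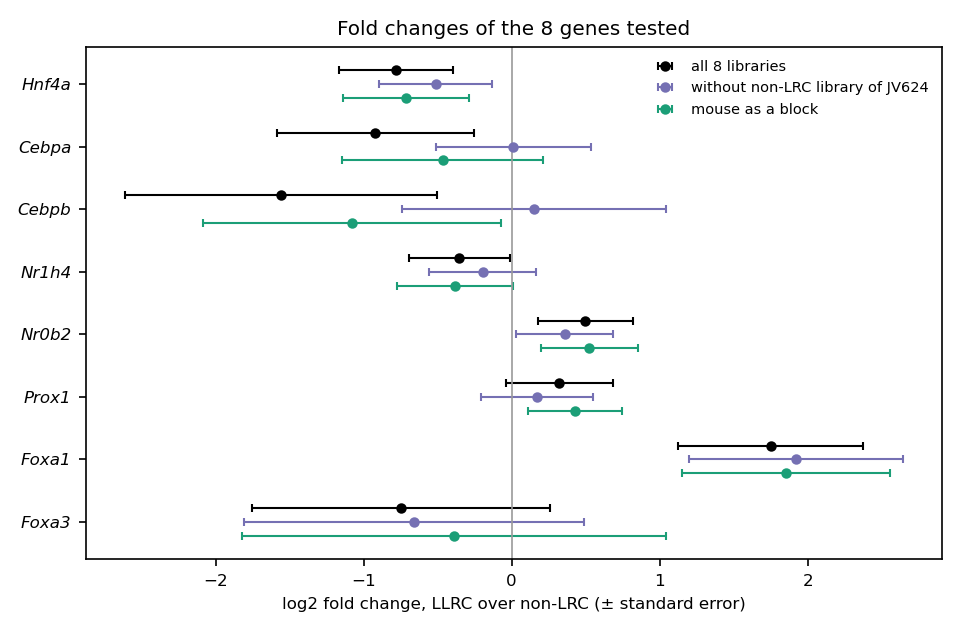
Log2 fold change of LLRC over non-LRC (horizontal axis, ± SE) for the 8 genes tested, with all 8 libraries (black), without the non-LRC library of JV624 (purple) and with the mouse as a block (green). Foxa1 stayed above 0 at 1.75, 1.92 and 1.85, while Cebpa and Cebpb moved from -0.92 and -1.56 to 0.012 and 0.15 without that library.

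Levels of different genes were compared per kilobase of exon. In LLRCs the order was Nr0b2 (51.7 CPM per kb), Prox1 (28.9), Foxa1 (19.7), Nr1h4 (12.8), Hnf4a (3.12), Cebpa (1.73), Foxa3 (1.59), Cebpb (0.766) and Nr1i3 (0.049), all in CPM per kb. All exon bases were used as the length. Union counting without strand assigns reads on bases shared with another gene to neither, so that the levels per kb of Nr1i3 (74.9% of exon bases shared) and Cebpb (20.7%) are too low by an amount that was not estimated. The libraries of neighbours in this order did not overlap between Nr0b2 and Prox1, Nr1h4 and Hnf4a, Hnf4a and Cebpa, and Cebpb and Nr1i3, and overlapped for the other pairs. In non-LRC cells Foxa1 (5.86 CPM per kb) and Nr1h4 (16.3 CPM per kb) changed places and the other 7 genes kept their ranks. There only the neighbours Nr1h4 and Foxa1 had libraries that did not overlap. SHP, PROX1 and FXR transcripts were therefore among the 4 highest of the group in both populations, and those of the C/EBP proteins and CAR among the 4 lowest.

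**Figure D3:**
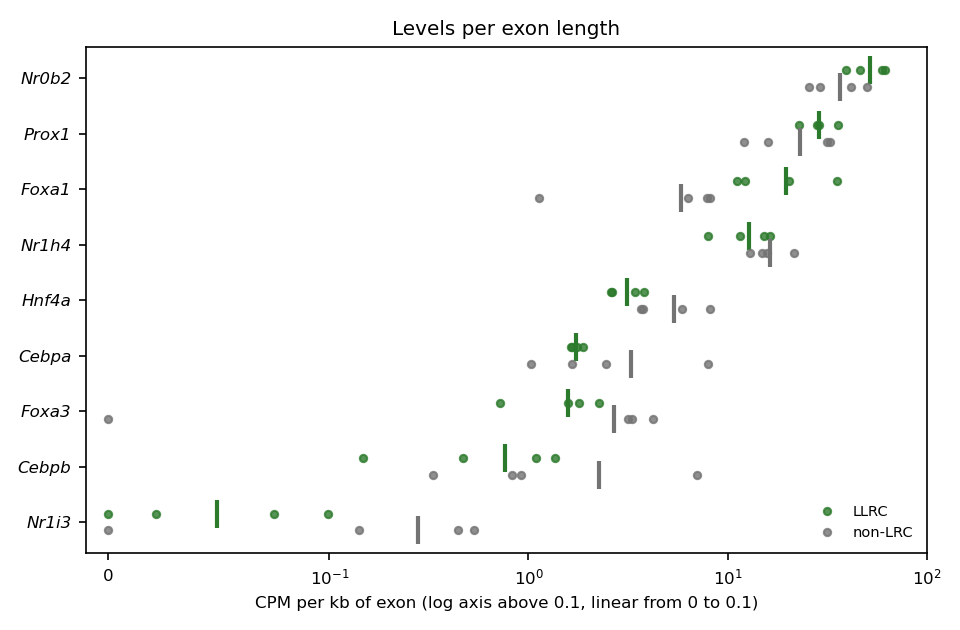
CPM per kb of exon (horizontal axis, logarithmic above 0.1 and linear below) of the 9 genes in LLRC (green) and non-LRC (grey) libraries, with points for libraries and vertical ticks for means of 4. Nr0b2 was the highest at 51.7 and 36.6 CPM per kb and Nr1i3 the lowest at 0.049 and 0.280 CPM per kb.

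The non-LRC library of JV624 was the highest of the 8 for 4 of the 8 genes tested, and for Nr1i3. Over all genes tested it was the highest for 17.4%. Relative to the median of the other 7 libraries it held 2.24 times the Hnf4a, 4.83 times the Cebpa, 8.44 times the Cebpb and 1.45 times the Nr1h4 CPM, but 0.557 times the Nr0b2, 0.555 times the Prox1 and 0.706 times the Foxa1 CPM. The other 7 are LLRC and non-LRC libraries together. For Foxa1, the 26.2 CPM of this library lay above the mean of the other non-LRC libraries, 17.2 ± 12.1 CPM. Its Nr0b2 and Prox1 levels lay below the corresponding means, 45.4 and 214.2 CPM. Markers of other cells differed in this library too. Against the median of the other 7, its summed CPM of hepatocyte markers was 1.24 times, that of 24 hepatocyte secretory and metabolic genes 1.68 times, that of mesothelial markers 2.58 times, that of acinar markers 3.63 times, that of mesenchymal markers 3.91 times and that of endothelial markers 8.09 times. Other non-LRC libraries were higher for endothelial (JV621 and JV6314) and acinar markers (JV6314), and JV6314 nearly as high for mesenchymal markers. The 14 cholangiocyte markers without Spp1 were at 0.725 times. Their part in the values of the 9 genes was not tested. In bulk libraries fewer cells of a type and less RNA per cell cannot be told apart.

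**Figure D4:**
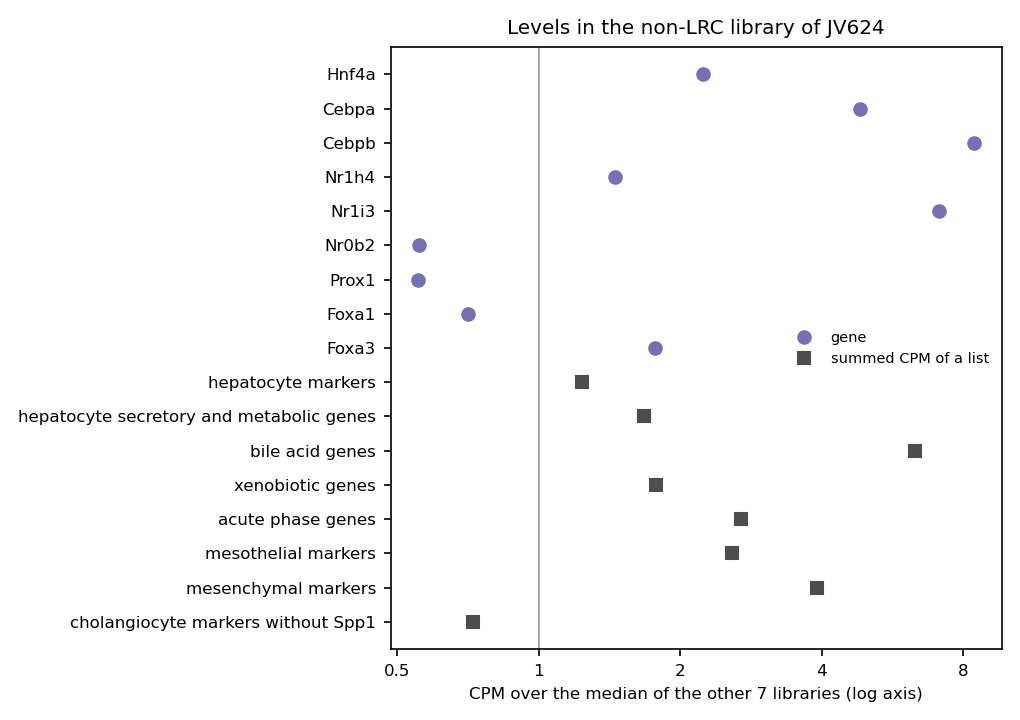
CPM in the non-LRC library of JV624 divided by the median of the other 7 libraries (horizontal axis, logarithmic), for each of the 9 genes (circles) and for the summed CPM of gene lists (squares). Cebpb (8.44), Nr1i3 (7.11), bile acid genes (6.32) and Cebpa (4.83) lay far above 1, and Nr0b2, Prox1, Foxa1 and cholangiocyte markers below it. The other 7 are LLRC and non-LRC libraries together.

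The other nuclear receptors did not move to one side. Of 29 listed, 20 were tested, 10 with a log2 fold change above 0 and 10 below, and 0 had an unadjusted p below 0.05. Their median was -0.00. The most abundant were Nr2f2 (COUP-TFII) at 491.6 ± 160 CPM (LLRC) against 696.9 ± 264 CPM (non-LRC), the clock repressor Nr1d2 at 262.0 ± 26.8 and 194.2 ± 138 CPM, and Rora at 140.6 ± 30.0 and 96.3 ± 58.4 CPM. The largest fold changes were those of Hnf4g, a relative of Hnf4a, with a log2 fold change of 1.40 ± 1.13, and Nr1i2, the xenobiotic receptor PXR, with 1.30 ± 1.08. For Nr1i2 the sign was opposite to the difference in counts of Nr1i3.

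Of 22 other liver transcription factors, 20 were tested, with 10 log2 fold changes on each side of 0 and a median of 0.01. Nfib, Zbtb20 and Hhex led in abundance, at 494.7 ± 103, 536.3 ± 198 and 352.8 ± 124 CPM in LLRCs, against 450.5 ± 125, 350.6 ± 85.3 and 386.4 ± 275 CPM in non-LRC cells. Gata4, a zinc finger factor that the liver's endothelial and mesenchymal cells also use, was covered by 0, 3, 5 and 1 counts in LLRCs, against 18, 22, 54 and 51 in non-LRC cells. Its groups were apart (1.91% of all genes tested in this direction), and its log2 fold change of -4.39 ± 1.04 had an adjusted p of 0.276 (edgeR's quasi-likelihood test). The summed endothelial markers (ranges above) and the summed mesenchymal markers, 260.7 to 851 CPM in LLRCs against 664.6 to 2598 CPM in non-LRC cells, lay on the same side, and their part in the Gata4 value was not tested. Cebpd, a further C/EBP gene, stood at 2.88 ± 1.87 and 10.6 ± 8.62 CPM with an adjusted p of 0.917 (same test), and was again highest in the non-LRC library of JV624. Cebpg, a more widely expressed C/EBP gene named after its values were seen, went the other way. It stood at 87.6 ± 32.6 CPM in LLRCs against 52.4 ± 32.9 CPM in non-LRC cells. Its log2 fold change was 0.74 ± 0.62 (adjusted p = 1.00, same test). It was higher in LLRCs in 4 of 4 mice, as were 7.74% of all genes tested. Of 15 coregulators of nuclear receptors, 14 were tested and 0 had an unadjusted p below 0.05. Their median log2 fold change was 0.10, with Crebbp at 0.10 ± 0.47, Ncor1 at -0.02 ± 0.26, Ncoa3 at -0.06 ± 0.42, Ppargc1a at 0.78 ± 0.67 and Sirt1 at 1.02 ± 1.06.

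Genes that these factors are known to drive in hepatocytes had fold changes mostly below 0. All 24 secretory and metabolic genes were tested, and 20 of the log2 fold changes were below 0, with a median of -1.49. An unadjusted p below 0.05 in that direction was found for 10 of 24, beside 3.56% of all genes, and 0 were called. Abundant members did not all follow the median. Alb had a log2 fold change of 0.01 ± 0.27, and Ahsg, the serum glycoprotein fetuin-A, one of 0.46 ± 0.32. Hpd, an enzyme of tyrosine breakdown, was at 14.0 ± 5.52 and 103.0 ± 119 CPM (log2 fold change -2.88 ± 0.80, adjusted p = 0.438, edgeR's quasi-likelihood test), and the clotting factor gene F9 at 4.56 ± 3.81 and 39.1 ± 40.6 CPM. The non-LRC library of JV624 was the highest for 18 of the 24. Without it the median was -0.63 and 4 had an unadjusted p below 0.05 in that direction, and with the mouse as a block the median was -0.94. Several sets of cell type markers lay on the same side, while 13 of 15 cholangiocyte markers had log2 fold changes above 0 (median 0.17). The 10 endothelial markers tested had the lowest median of the sets named here, -3.73, with 10 at an unadjusted p below 0.05 in that direction. The 12 hepatocyte markers, some of which are in this list, had a median of -1.42 with 5 at an unadjusted p below 0.05 in that direction, the 5 mesothelial markers a median of -1.31 and the 4 mesenchymal markers tested one of -2.19. Without the non-LRC library of JV624 the hepatocyte markers had a median of -0.63 with 1 at an unadjusted p below 0.05 in that direction. The medians were then -0.59 for mesothelial, -1.56 for mesenchymal and -3.76 for endothelial markers. The part of these cell types in the fold changes was not tested.

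The bile acid list, which includes FXR and SHP targets, held 17 genes, of which 13 were tested and 11 had log2 fold changes below 0. Its median of -2.002 became -1.12 when the non-LRC library of JV624 was left out and -1.02 with the mouse as a block. Cyp7a1, the rate-limiting enzyme of bile acid synthesis and a gene that SHP represses, had 8, 14, 2 and 0 counts in LLRCs, against 157, 0, 141 and 69 in non-LRC cells. In 3 mice the non-LRC library was thus above every LLRC library, while that of JV621 was at 0, and the log2 fold change of -4.31 ± 1.47 had an adjusted p of 0.728 (edgeR's quasi-likelihood test). Cyp8b1, which makes the precursor of cholic acid, had 12, 7, 9 and 13 counts in LLRCs, against 1, 1, 206 and 143 in non-LRC cells. The transporter genes Slc10a1 and Slco1a1, for uptake at the hepatocyte's blood side, had log2 fold changes of -2.002 ± 0.89 and -3.05 ± 1.40, and Cyp7b1 one of -1.81 ± 1.25. The single gene of the list with an unadjusted p below 0.05 in the other direction was Abcc2, an export pump named after its value was seen. It had 16, 45, 3 and 95 counts in LLRCs, against 12, 0, 5 and 2 in non-LRC cells, with an adjusted p of 0.951 (same test). Slc51a and Slc51b, which encode the FXR-driven bile acid exporter of the basal membrane, and Fgf15, an FXR target of the ileum, were listed at 0 counts in all 8 libraries.

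Of 17 xenobiotic genes, which CAR and PXR drive in hepatocytes, 11 were tested and 9 had log2 fold changes below 0, with a median of -1.55 (-0.81 without the non-LRC library of JV624, -0.73 without that of JV6314, -0.48 with the mouse as a block). The abundant members Gstm1 and Aldh1a1 stood at 407.6 ± 41.6 and 289.5 ± 83.0 CPM in LLRCs, against 468.3 ± 171 and 390.0 ± 126 CPM in non-LRC cells. Cyp3a11 was at 92.1 ± 109 and 484.0 ± 587 CPM, and Ces2a, a carboxylesterase, at 1.04 ± 0.863 and 8.77 ± 7.87 CPM with an adjusted p of 0.745 (edgeR's quasi-likelihood test). Cyp2b9, Cyp2b13 and Cyp2c55 were listed at 0 counts in all libraries. Of 16 acute phase genes, a C/EBP-driven group, 11 were tested and 10 had log2 fold changes below 0, with a median of -0.80 (-0.46 without the non-LRC library of JV624). C3 and Fgg, for complement and fibrinogen, had log2 fold changes of -0.86 ± 0.40 and -0.52 ± 0.44, Lcn2 one of -0.28 ± 0.38, and Orm1 and Hpx -2.39 ± 1.18 and -2.09 ± 0.91. The non-LRC library of JV624 was the highest for 8 of these 11 genes.

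**Figure D5:**
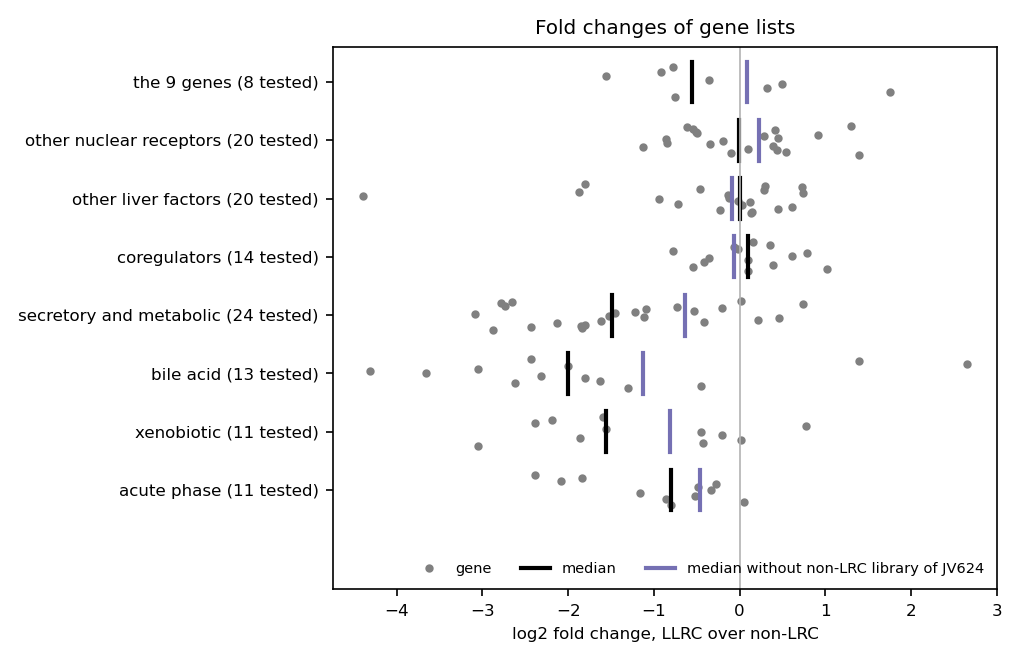
Log2 fold change of LLRC over non-LRC (horizontal axis) of each tested gene (points) in the group of 9 and in 7 related lists, with the median of each list (black) and the median without the non-LRC library of JV624 (purple). The 8 tested genes of the group had a median of -0.55 (0.08 without that library). The other regulators and the coregulators had medians of -0.00, 0.01 and 0.10. The lists of hepatocyte products had medians between -2.002 and -0.80 that lay closer to 0 without that library.

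The genes whose levels ran most like each of the 9 over the 8 libraries were found by Pearson's r of log2(CPM + 1), as a description. They share the libraries, their depth and their scaling. They were picked as the highest of 13605 genes over 8 libraries, so that their r is high by selection. For Foxa1 they were Aak1 (r = 0.986), Ccdc88a (r = 0.984) and Rala (r = 0.972). For Hnf4a the nearest was Arl4d (r = 0.970) before Gm14231 and Ldha, and for Nr1h4 it was Pcyt2 (r = 0.962), followed by Nr1h2 (r = 0.961), the liver X receptor beta. Cebpa ran most like Maob (r = 0.987), Gadd45g and Gpx1, and Cebpb like Klc1 (r = 0.959), Lrp2 and Reep6. Nr1i3, with only 0 to 15 counts per library, ran like Apoa2 (r = 0.984) and 2200002D01Rik. Foxa3 ran like Tm6sf2 (r = 0.989), Gm13573 and Tmem222. Nr0b2 ran most like Scpep1 (r = 0.945), Ip6k2 and Elmo1, and Prox1 like Ocln (r = 0.976), which encodes the tight junction protein occludin, Sptlc1 and Cand1. Within the group, Cebpa and Cebpb had an r of 0.866, Hnf4a and Nr1h4 of 0.795, and Foxa1 and Foxa3 of 0.347.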

How the data were processed

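RNA-seq was analysed for 8 libraries, 1 of LLRCs and 1 of non-LRC cells from each of 4 mice. The authors counted reads on exons with HTSeq in union mode and without strand (genome build GRCm38.p4, per the labels), and deposited raw counts per gene. Their table of edgeR fold changes and p-values was not used. From the counts, libraries were scaled by TMM (factors 0.816 to 1.23) and genes passing filterByExpr were tested with the quasi-likelihood test of edgeR 4.0.16 (R 4.3.3), with group as the only term and Benjamini-Hochberg adjustment at 0.05. DESeq2 1.42.0, limma 3.58.1, other scalings and filters, a block for the mouse and leaving out each library were alternatives. The tests were checked on simulated data. Coordinates came from GENCODE for GRCm38, which named 46005 of 46603 identifiers, and promoter windows from RefSeq.

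The 9 genes, the lists and the motif spellings were chosen with earlier results of these data known. All 9 genes are given. From each related list, the 3 most abundant genes and the 2 tested genes with the largest absolute fold change are named, with Epcam, Krt19, Alb and Ptprc as markers, and the 3 genes most alike each of the 9. A few genes that this rule names are not reported here. The libraries of a mouse come from 1 animal, so the numbers pair them. Across genes, the departures from the group mean in both libraries of an animal correlated with an r of 0.0898 in JV602, 0.0986 in JV621, 0.00396 in JV624 and 0.188 in JV6314. Since each library is 1 sort from 1 animal, p-values measure the spread between animals, sorts and libraries together. Intervals and floors cover counting error only.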

Additional observations from a re-analysis of the deposited data

Results flagged for a closer look

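The Cebpb level in the non-LRC library of JV624, 10.5 CPM, lay far from the other 3 non-LRC libraries, which held 0.498 to 1.37 CPM. Its gap to the nearest of them was 0.913 of the range of the group. Of 18 groups of 4 libraries examined (9 genes in LLRCs and in non-LRC cells) this was the 1 marked by Dixon's criterion, and chance alone marks about 1 in 20 groups. The cause was not tested.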

How the results depend on the processing

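None of the 9 genes was called under any of 18 alternatives, and 142 of 144 fold changes kept their direction. The exceptions were Cebpa and Cebpb without the non-LRC library of JV624. Leaving out each library in turn gave log2 fold changes from -1.20 to 0.012 for Cebpa and from -1.96 to 0.15 for Cebpb. The number of genes called over the whole table was 0 in the main test, 221 with DESeq2, 154 with edgeR's exact test, 171 with its likelihood ratio test and 11 without a filter. The cause of these differences was not tested. With 1 library left out it was between 0 and 6, the 6 arising without the non-LRC library of JV602. With the mouse as a replicate block it was 0, and Foxa1 had a log2 fold change of 1.85 in this paired fit, which changed no call. Nr1i3 was tested only with a filter of 1 CPM in 2 libraries or with no filter, where its log2 fold change was -2.42 or -2.40. Other pseudocounts left 18 of 18 exact p-values on their side of 0.05. Of 270 list medians, 14 moved by 1 SD of the differences between mice or more. With 4 libraries a group and these counts, differences of the size seen for Hnf4a or Nr0b2 were not separable from the spread between libraries.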

Other observations

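Ptprc, which encodes the CD45 protein that the sort excluded, was covered by 5, 34, 14 and 59 counts in LLRCs (in the order JV602, JV621, JV624, JV6314), against 0, 0, 0 and 7 in non-LRC cells. LLRCs were higher in 4 of 4 mice, as for 7.74% of all genes tested. The adjusted p was 0.957 (edgeR's quasi-likelihood test). The summed CPM of 10 hematopoietic markers was 15.8 to 108.9 in LLRCs and 23.9 to 588.4 in non-LRC cells, and Adgre1, Clec4f and Cd3e were at 0 counts in all LLRC libraries. The summed CPM of 10 acinar markers of the pancreas was 1.88 to 7.45 in LLRCs and 5.23 to 1105 in non-LRC cells, the highest being that of JV6314.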
